A study of Mus musculus with 13 samples.

Results

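The Reg genes encode a family of small secreted C-type lectin-like proteins, and 7 of them were examined in the pancreas of young, old and old-OSKM mice. The members were the rows of the deposited table whose Entrez identifiers belong to Reg1, Reg2, Reg3a, Reg3b, Reg3d, Reg3g and Reg4, which makes 7 of 23366 genes. All 7 were found, and no member was removed by a filter.

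Regenerating islet-derived (Reg) proteins were first described in the pancreas. REG1 proteins, also known as lithostathine or pancreatic stone protein, are products of acinar cells and belong to the normal zymogen secretion. REG3B, also known as pancreatitis-associated protein, is a classical marker of acinar stress in pancreatitis, and together with REG3G it is also made by the intestinal epithelium, where both act as antimicrobial lectins. Transcription of the Reg3 genes is known to be induced through STAT3 by cytokines such as IL-22 and IL-6. REG4 is known mainly from the gastrointestinal epithelium.

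Expression was measured by RNA sequencing of rRNA-depleted total RNA from whole pancreas, with one library per mouse, in 13 females. All 13 carried the i4F-B transgene, which lies within the Pparg gene and encodes the factors OCT4, SOX2, KLF4 and MYC (OSKM) under the control of doxycycline, without restriction to a cell type. The 4 young mice (13 weeks) and the 5 old mice (55 weeks) received no doxycycline. The 4 old-OSKM mice received doxycycline for 7 days at the age of 55 weeks and then recovered for 2 weeks, so that they were 58 weeks old at collection according to the labels. Doxycycline without the cassette had no group of its own here, so OSKM induction, the drug and the extra 3 weeks of age cannot be told apart. According to the study, acinar cells respond readily to induction whereas most endocrine cells do not. The values are log2 RPKM (read numbers scaled to transcript length and sequencing depth), so levels can be set beside each other between genes. The study's methods give one read number for all libraries and no total per mouse, so no counting error is given. Nothing in the labels pairs the mice between groups.

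The tissue label was checked against markers. The 22 acinar secretory genes (digestive enzymes and their cofactors) all had a mean above 0, and their summed level was 16730 to 19032 RPKM in the 13 mice. In contrast, 0 of 23 intestinal epithelial genes and 0 of 10 gastric genes had a mean above 0, with summed levels of at most 7.93 and 1.84 RPKM. Some libraries stood apart. JCX1158 (young) had a summed level of 94.7 RPKM over 15 liver genes, where no other mouse exceeded 10.1 RPKM. JCX1025 (old-OSKM) had the highest summed levels of macrophage (36.8 RPKM), T cell (8.11 RPKM) and B and plasma cell genes (14.9 RPKM). JCX1011 (old-OSKM) had the lowest acinar secretory level and the highest islet level (522 RPKM, compared with 82.3 to 406 RPKM in the others). Between groups, 207 genes (0.886% of 23366) passed the call rule used below in old compared with young mice, 176 (0.753%) in old-OSKM compared with old mice, and 146 (0.625%) in old-OSKM compared with young mice.

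Of the 7 genes, 6 lie in a cluster on chromosome 6 (GRCm38.p6, the same assembly as mm10) that spans 97.99 kb from 78370885 to 78468874, and the GENCODE annotation places no other gene there. In RefSeq, Reg3b (78370885 to 78373466, plus strand) is followed by Reg3d (78375874 to 78378865, minus strand), Reg3a (78380709 to 78383839, plus), Reg2 (78405155 to 78408099, plus), Reg1 (78425983 to 78428668, plus) and Reg3g (78466269 to 78468874, minus). Reg4 lies alone on chromosome 3 (98222138 to 98236748, plus). The members are related in sequence but can be told apart by reads. When every 50-base window of the longest transcript of each member was compared with all GENCODE transcripts of the others, 0 windows matched with 2 or fewer mismatches. The highest identity between transcripts was 69.3% (Reg3a and Reg3b). Only Reg1 had windows with an exact copy in the transcripts of other genes (32 of 855 windows).

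The 250 bases before the start site of Reg2, Reg3a, Reg3b and Reg3g are shown, since the levels of these 4 genes moved together from mouse to mouse, as described below. Each sequence is from RefSeq (GRCm38.p6), 5′ to 3′ on the strand of the gene. Capitals mark matches on either strand. The motifs are TTCNNNGAA (the spaced palindrome bound by STAT factors), CACCTG (an E-box, the element bound by basic helix-loop-helix factors such as the acinar factor PTF1A) and TATAAA (the letters of the TATA box). TTTATA in Reg3g, at -161 to -156 from the start site, is TATAAA on the opposite strand. The sequences are at chr6:78404905-78405154 (Reg2, plus), chr6:78380459-78380708 (Reg3a, plus), chr6:78370635-78370884 (Reg3b, plus) and chr6:78468875-78469124 (Reg3g, minus).
Reg2: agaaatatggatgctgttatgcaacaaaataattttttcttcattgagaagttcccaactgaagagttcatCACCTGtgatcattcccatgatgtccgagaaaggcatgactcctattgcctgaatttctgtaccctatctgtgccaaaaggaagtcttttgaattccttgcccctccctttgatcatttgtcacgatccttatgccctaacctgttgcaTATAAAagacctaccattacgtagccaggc
Reg3a: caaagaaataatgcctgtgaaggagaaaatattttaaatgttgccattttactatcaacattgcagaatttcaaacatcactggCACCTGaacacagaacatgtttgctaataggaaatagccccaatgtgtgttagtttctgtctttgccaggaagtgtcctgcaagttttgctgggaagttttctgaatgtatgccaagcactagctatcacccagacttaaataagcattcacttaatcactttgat
Reg3b: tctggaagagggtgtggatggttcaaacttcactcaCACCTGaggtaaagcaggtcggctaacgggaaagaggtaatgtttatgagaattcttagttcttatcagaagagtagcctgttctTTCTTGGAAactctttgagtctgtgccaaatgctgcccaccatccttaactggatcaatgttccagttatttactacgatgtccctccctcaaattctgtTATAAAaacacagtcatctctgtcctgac
Reg3g: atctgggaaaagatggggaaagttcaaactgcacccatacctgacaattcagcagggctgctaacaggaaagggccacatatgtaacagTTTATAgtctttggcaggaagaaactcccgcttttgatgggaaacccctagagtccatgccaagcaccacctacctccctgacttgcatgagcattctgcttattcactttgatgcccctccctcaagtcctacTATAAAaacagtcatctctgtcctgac

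On both strands of these 250 bases, TTCNNNGAA was found in 2 of the 7 members (Reg3b and Reg3d) and in 7.02% of 32851 promoters. TGGGAA, the element recognized by RBPJ, was found in 5 (Reg1, Reg2, Reg3a, Reg3d and Reg3g) and in 21.6% of promoters. The E-box CAGCTG was found in 0 of 7 members and in 13.0% of promoters. CACCTG and TATAAA, which were searched after the sequences had been read, were found in 5 members (Reg2, Reg3a, Reg3b, Reg3d and Reg4; 17.2% of promoters) and in 4 (Reg1, Reg2, Reg3b and Reg3g; 12.4% of promoters). TTCNNNGAA and TGGGAA can overlap, and did so in Reg3d. In Reg1, Reg2, Reg3b and Reg3g, TATAAA on the strand of the gene began 27 to 30 bases before the start site. The promoters of Reg3b and Reg3g were the most similar pair, with 68.9% identity. Binding of factors was not measured, and a match is only a description of the letters.

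Levels of the family differed widely between members and spanned the abundance of the pancreatic transcriptome. Reg1 was among the most abundant transcripts of the tissue, at rank 18 to 22 of 23366 in every mouse, with a mean of 9.34 ± 0.19 log2 RPKM (SD, n = 13). Reg2 (5.69 ± 1.503) and Reg3d (5.17 ± 0.30) came next and did not differ beyond their spread, since Reg2 was higher in 7 mice and Reg3d in 6. Reg3b (2.97 ± 1.35) was below Reg3d in 12 of 13 mice. Reg3a (1.61 ± 1.08) was below Reg3b in all 13 mice, although the ranges overlapped, and it was above Reg3g (1.10 ± 0.89) in 11 of 13. Reg4 was at -3.13 ± 0.055. The summed level of the family was 488 to 1103 RPKM per mouse. Reg1 made up 63.6% to 93.4% of this sum and Reg2 1.86% to 24.1%.

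**Figure D1:**
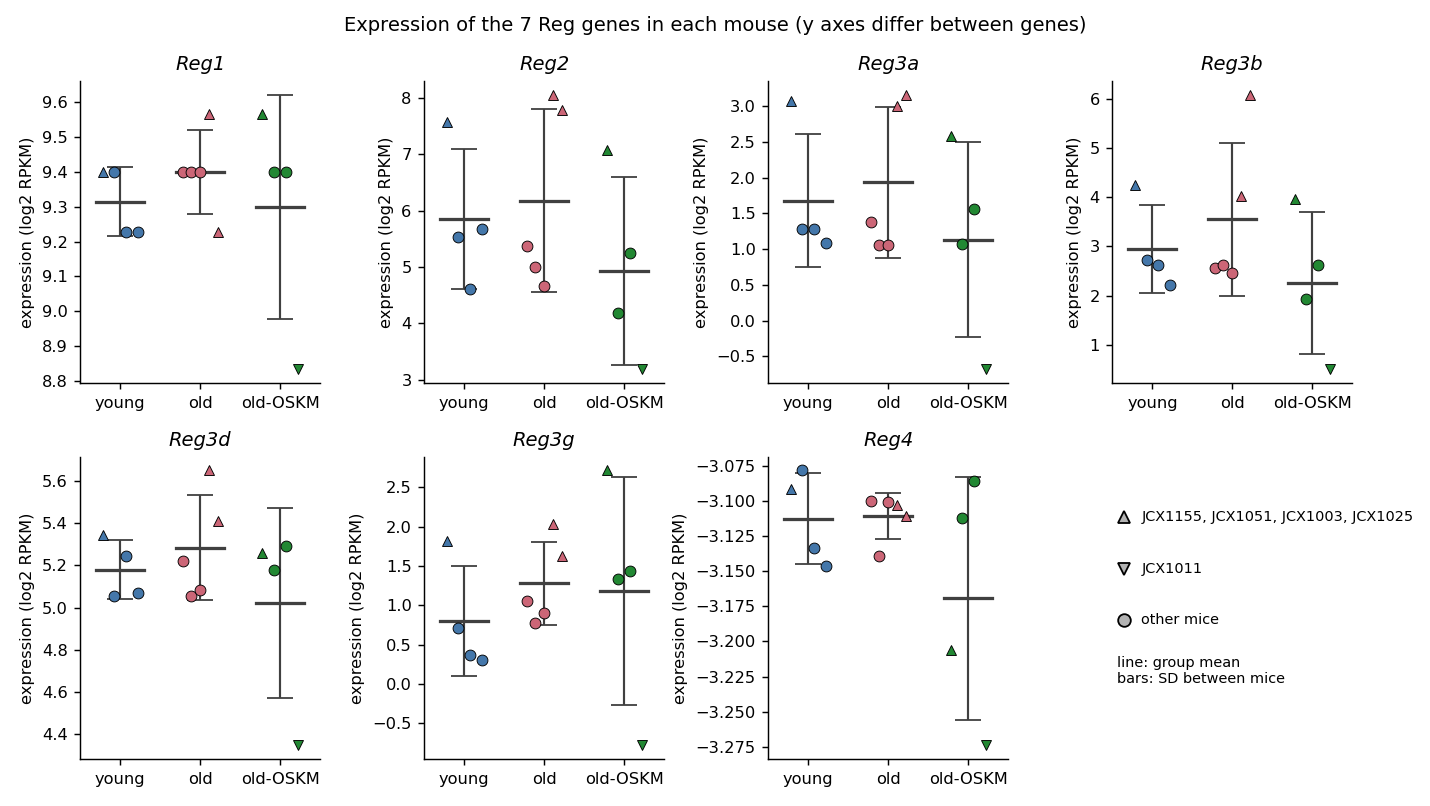
Expression of the 7 Reg genes (log2 RPKM, y axes that differ between genes) in the 4 young, 5 old and 4 old-OSKM mice, one point per mouse, with the group mean (line) and the SD between mice (bars). For Reg2, Reg3a, Reg3b and Reg3g, the upward triangles (JCX1155, JCX1051, JCX1003 and JCX1025) lie above all other points, and for all 7 genes the downward triangle (JCX1011) is the lowest point.

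Reg1, the main pancreatic stone protein gene of the mouse, was nearly constant. It was at 9.40, 9.40, 9.23 and 9.23 log2 RPKM in the young mice JCX1155, JCX1163, JCX1158 and JCX1164. In the old mice JCX1000, JCX1001, JCX1002, JCX1051 and JCX1003 it was at 9.40, 9.40, 9.40, 9.57 and 9.23. In the old-OSKM mice JCX1025, JCX1027, JXC384 and JCX1011 it was at 9.57, 9.40, 9.40 and 8.83. The groups overlapped, and the 13 values take only 4 levels, because quantile normalization gives each rank one value. From rank 18 to rank 22, neighbouring ranks are 0.166 to 0.230 apart on the log2 scale. A change smaller than one rank therefore cannot be seen for Reg1, and rank 22 in JCX1011 set the lowest value.

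Reg2, the second regenerating gene of the REG1 type, had the largest SD between mice of the family. In the same order of mice, it was at 7.57, 5.54, 4.60 and 5.67 log2 RPKM in young mice. In old mice it was at 5.38, 4.998, 4.66, 8.05 and 7.79. In old-OSKM mice it was at 7.08, 4.18, 5.25 and 3.18. The highest mouse (JCX1051) was 29.3-fold above the lowest (JCX1011), and in each group the mice were either at 7.08 or above or at 5.67 or below, so that the groups overlapped over most of their range.

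Reg3b, the pancreatitis-associated protein, had the widest range of the family, 47.6-fold. It was at 4.25, 2.72, 2.62 and 2.21 log2 RPKM in young mice. In old mice it was at 2.57, 2.63, 2.46, 4.02 and 6.08. In old-OSKM mice it was at 3.96, 1.94, 2.63 and 0.50. The mice high for Reg2 were high for Reg3b too, with JCX1003 far above the others.

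Reg3a, a close relative of Reg3b, covered a 14.3-fold range. It was at 3.07, 1.27, 1.28 and 1.08 log2 RPKM in young mice. In old mice it was at 1.38, 1.06, 1.06, 3.01 and 3.16. In old-OSKM mice it was at 2.58, 1.07, 1.56 and -0.68. The 4 highest mice were at 2.58 or above, and the other 9 at 1.56 or below.

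Reg3g, the antimicrobial lectin of the intestine, was the least abundant member of the cluster and covered an 11.3-fold range. It was at 1.82, 0.71, 0.37 and 0.30 log2 RPKM in young mice. In old mice it was at 1.05, 0.77, 0.91, 2.03 and 1.63. In old-OSKM mice it was at 2.72, 1.34, 1.44 and -0.78. Here the gap between the high mice and the rest was small (0.19), and 2 of the other old-OSKM mice came close to JCX1003.

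Reg3d, which is also known as INGAP-related protein, varied only 2.46-fold. It was at 5.35, 5.06, 5.24 and 5.07 log2 RPKM in young mice. In old mice it was at 5.22, 5.06, 5.08, 5.65 and 5.41. In old-OSKM mice it was at 5.26, 5.18, 5.29 and 4.35. All values except the last lay within 0.59 of each other.

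Reg4 was not measurably expressed. Its values lay between -3.27 and -3.08 log2 RPKM in all 13 mice, a range of 0.20. The gene of the cytokine IL-22, which lies in another part of the genome, had a range of 0.22 (-3.35 to -3.13), and 2267 of the 11733 genes with a mean under -1 had a range no larger than that of Reg4. For both genes the lowest mice were JCX1011 and JCX1025 (-3.27 and -3.21 for Reg4, -3.35 and -3.28 for Il22). Differences between mice in this range are not read as expression of Reg4.

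The mice, and not the groups, accounted for most of the spread of the Reg genes. The 4 mice with the highest Reg2 (JCX1155 in the young group, JCX1051 and JCX1003 in the old group and JCX1025 in the old-OSKM group) were also the 4 highest for Reg3a, Reg3b and Reg3g. For Reg3d, 3 of them were among the 4 highest, and JXC384 took the place of JCX1025. The gap between the fourth and the fifth mouse was 1.41 for Reg2, 1.24 for Reg3b, 1.02 for Reg3a and 0.19 for Reg3g on the log2 scale. JCX1011 was the lowest mouse for all 7 genes. The members did not always go together. JCX1003 was the highest mouse for Reg3a and Reg3b, the fourth for Reg3g, and at 9.23 for Reg1, where only JCX1011 was lower.

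**Figure D2:**
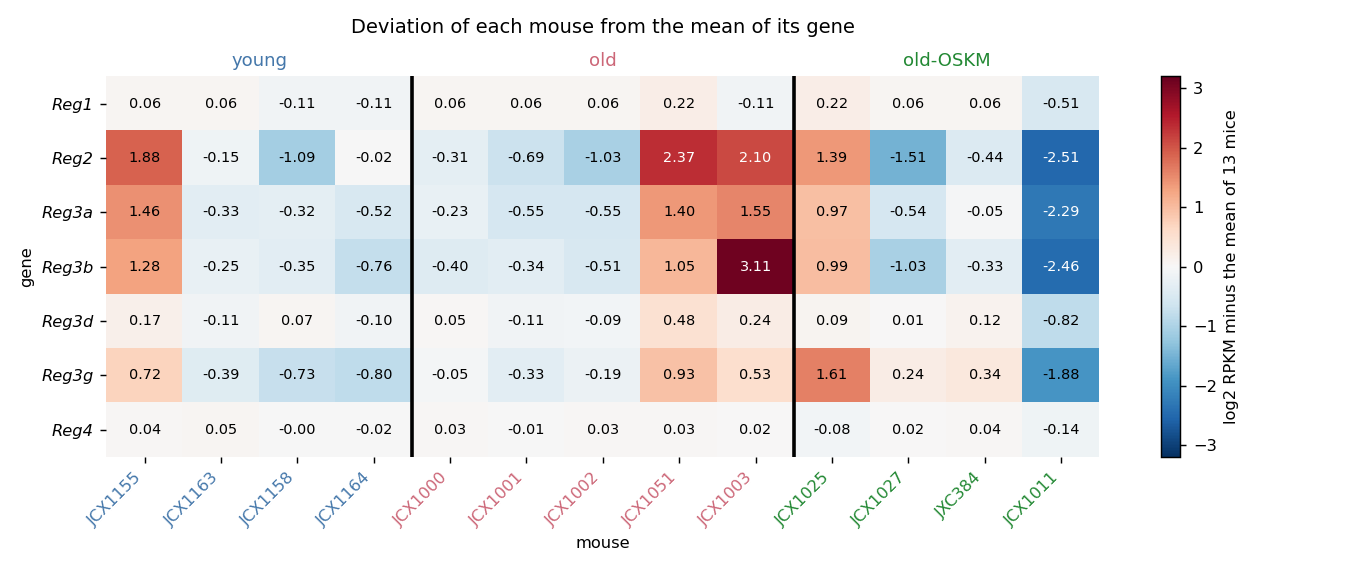
Deviation of each mouse (columns, by group) from the mean of the 13 mice for each Reg gene (rows), in log2 RPKM, with red above and blue below the mean. Reg2, Reg3a, Reg3b and Reg3g are red in JCX1155, JCX1051, JCX1003 and JCX1025 and dark blue in JCX1011, whereas Reg1, Reg3d and Reg4 stay near white in most mice.

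Among genes with a mean above 0, the spread between mice of a group was exceptional for 4 members. Genes with a lower mean were not ranked. The SD within groups was 1.53 for Reg2, and 2 of the 8410 genes with a mean above 0, Reg2 included, had one at least as large. It was 1.35 for Reg3b (5 of 8410 genes), 1.13 for Reg3a (7 genes) and 0.94 for Reg3g (12 genes). The SD of Reg3d was 0.30 (930 genes) and that of Reg1 0.20 (2580 genes), compared with a median of 0.154 over the 8410 genes. The share of the variance that lay between groups was 5.74% for Reg3g, 6.27% for Reg1, 10.3% for Reg3a, 13.4% for Reg2, 14.6% for Reg3d and 16.9% for Reg3b, and its median over the 8410 genes was 15.4%. These are whole-tissue values, in which fewer cells of a type and less RNA per cell cannot be told apart.

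**Figure D3:**
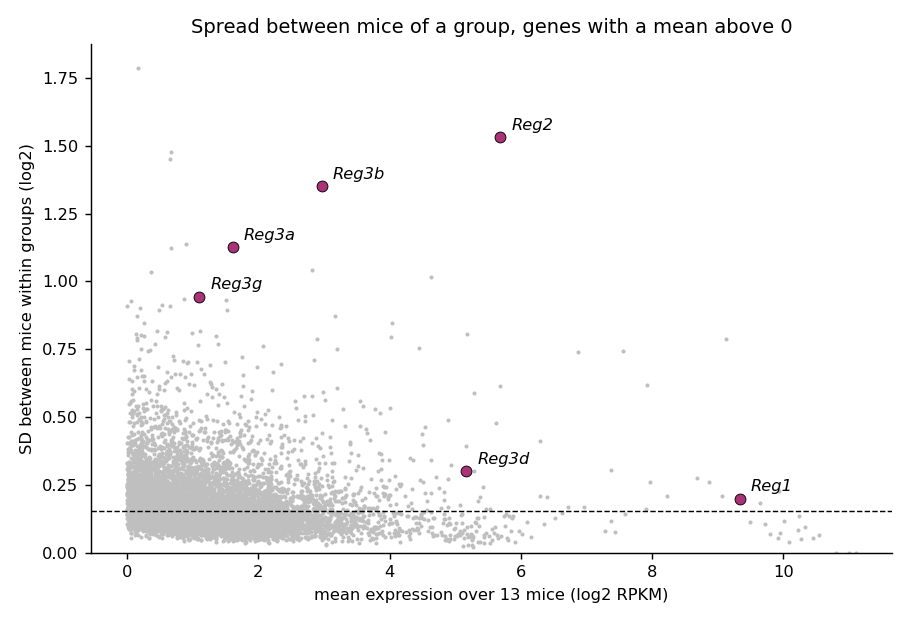
SD between mice of the same group (log2, y axis) against mean expression over the 13 mice (log2 RPKM, x axis) for the 8410 genes with a mean above 0 (grey) and the 6 Reg genes among them (purple), with the median of all these genes as a dashed line. Reg2, Reg3b, Reg3a and Reg3g stand far above genes of like abundance, and Reg3d and Reg1 lie nearer the dashed line at 0.154.

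Markers of other cells were set beside these levels, and their part in the Reg levels was not tested. Of 18 lists of pathway and cell type genes, none had all 4 high mice as its 4 highest. The list that came nearest was that of neutrophils, of whose 9 genes 0 had a mean above 0. Its summed level was 1.77, 2.33, 4.196 and 4.43 RPKM in JCX1155, JCX1051, JCX1003 and JCX1025, places 5, 4, 2 and 1 of 13, and 1.21 to 3.24 RPKM in the other 9 mice. Over the groups it was 1.37 to 3.24 RPKM in young, 1.37 to 4.196 RPKM in old and 1.21 to 4.43 RPKM in old-OSKM mice. The summed level of the 23 intestinal genes was 3.56, 4.18, 3.94 and 4.96 RPKM in the 4 high mice, compared with 3.62 to 7.93 RPKM in the other 9, and Vil1, which encodes the brush border protein villin, was at -2.76 to -0.74 log2 RPKM in the 13 mice. In JCX1011, where all members were lowest, the 22 acinar secretory genes summed to 16730 RPKM, a sum partly bound by rank. It was 18094 to 19032 RPKM in the other 12 mice. The summed level of the 6 acinar transcription factor genes was highest in JCX1011, at 79.8 RPKM. By their mean log2 RPKM, JCX1001 was highest (3.33, compared with 3.27 in JCX1011). In JCX1011, Rbpjl (4.20 log2 RPKM) and Nr5a2 (3.01) were the highest of the 13 mice, and Ptf1a (1.74) and Gata4 (1.84) were the lowest. This mouse also had the highest summed levels of 12 islet genes (522 RPKM), 12 duct genes (62.9 RPKM), 10 fibroblast and stellate genes (77.4 RPKM), 10 endothelial genes (30.2 RPKM) and 10 adipocyte genes (16.4 RPKM).

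The 9 mice other than the 4 high ones were examined for co-variation, since the high mice form a cluster of their own and a correlation over all mice would mainly describe that cluster. Over these 9 mice, r was above 0 in all 15 pairs of the 6 members with a mean above 0 (0.53 to 0.98), and 7 pairs had an adjusted p under 0.05 by Pearson's r but 0 by Spearman's rho in exact permutation tests adjusted over the 15 pairs. When the 2 mice farthest from the median of the first gene were left out, 0 of the 15 pairs passed by either measure and r ran from -0.48 to 0.71. The values of r thus depended on the mice left out. With 7 mice over a narrower range a relation may fail to pass, so no conclusion is drawn on a relation among them.

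The comparison of old with young mice asked whether age changes the family. No member passed the call rule (a raw p under 0.01 together with a change of more than 1.5-fold), 0 of 7, against 0.886% of all genes, and 0 of 7 had a raw p under 0.05. The means of all 6 members above the floor were higher in old mice, with a median log2 difference of 0.29 (0.26 with Reg4), compared with 0.0012 over all genes, of which 54.4% were higher. The values of old and young mice overlapped for every member. Young mice had a mean Reg3b of 2.95 ± 0.89 (SD, n = 4), and old mice one of 3.55 ± 1.55 (SD, n = 5). The log2 difference was 0.60 (95% confidence interval -1.26 to 2.46, adjusted p = 1 from limma). For Reg3g the log2 difference was 0.48 (-0.82 to 1.78) and for Reg2 0.33 (-1.78 to 2.44). These intervals reach 5.42-fold higher for Reg2 and 5.499-fold higher for Reg3b, as well as lower levels, so a change of several fold with age was not detectable for either. For Reg1 (0.085, interval -0.20 to 0.37) and Reg3d (0.11, interval -0.32 to 0.53), a change beyond 1.5-fold lay outside the interval. For Reg2, Reg3a and Reg3b the direction depended on single mice. Without JCX1003 alone the difference was -0.075 for Reg2, -0.051 for Reg3a and -0.031 for Reg3b. With any single mouse left out it stayed positive for Reg3g (0.29 to 0.82), Reg1 (0.043 to 0.13) and Reg3d (0.014 to 0.16). The sample identifiers 609 to 621 leave out JCX1158, JCX1164 and JCX1003 together. With those identifiers only, the difference was -0.78 for Reg2, -0.57 for Reg3b, -0.54 for Reg3a and -0.074 for Reg3g.

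The comparison of old-OSKM with old mice asked whether transient reprogramming changes the family after 2 weeks of recovery. Again 0 of 7 members passed the call rule, against 0.753% of all genes, and 0 of 7 had a raw p under 0.05. The means of all 6 members above the floor were lower in old-OSKM mice, with a median of -0.53 (-0.26 with Reg4), while the median over all genes was -0.039 and 36.9% of genes were higher. These differences use the same old mice as those between old and young mice. For Reg3b the mean was 2.26 ± 1.44 (SD, n = 4) in old-OSKM mice, and the log2 difference was -1.29 (interval -3.15 to 0.57, adjusted p = 0.608 from limma), the smallest raw p of the family (0.155). The mean of Reg2 was 6.18 ± 1.62 (SD, n = 5) for old mice, compared with 4.92 ± 1.67 (SD, n = 4) for old-OSKM mice. Its log2 difference was -1.25 (interval -3.36 to 0.86, adjusted p = 0.608 from limma), and two-sided exact permutation tests gave p = 0.270 for Reg2 and 0.262 for Reg3b, where 0.00794 is the smallest p possible. The difference was -0.80 for Reg3a (interval -2.35 to 0.75), -0.26 for Reg3d (-0.69 to 0.16), -0.099 for Reg3g (-1.40 to 1.201) and -0.099 for Reg1 (-0.38 to 0.18). Without JCX1003 the difference of Reg3b was -0.66, and that of Reg2 was -0.78 without JCX1051. Without JCX1011 that of Reg3a was -0.20, that of Reg2 -0.67, that of Reg3b -0.71 and that of Reg3d -0.041, and those of Reg3g (0.55) and Reg1 (0.057) turned to higher in old-OSKM mice. Without JCX1025 the differences were larger, -1.97 for Reg2, -1.29 for Reg3a and -1.86 for Reg3b, and still not called.

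Old-OSKM and young mice were compared to see where the treated old mice lay relative to young ones. None of 7 members was called, against 0.625% of all genes, and 0 of 7 had a raw p under 0.05. Reg3g had a higher mean in old-OSKM mice (0.38, interval -0.99 to 1.75), and the other 5 members above the floor had lower means, from -0.015 for Reg1 to -0.92 for Reg2 (interval -3.15 to 1.30). The median of these 6 members was -0.35 (-0.16 with Reg4), and over all genes it was -0.038. The smallest exact permutation p of a member was 0.314 here, where the 4 mice on each side allow none below 0.0286. Without JCX1011 the difference of Reg3g was 1.03, that of Reg2 -0.34 and that of Reg3b -0.11. Without JCX1025 that of Reg2 was -1.64 and that of Reg3b -1.26. Without the young mouse JCX1155 that of Reg2 was -0.35, that of Reg3a -0.083 and that of Reg3b -0.26.

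**Figure D4:**
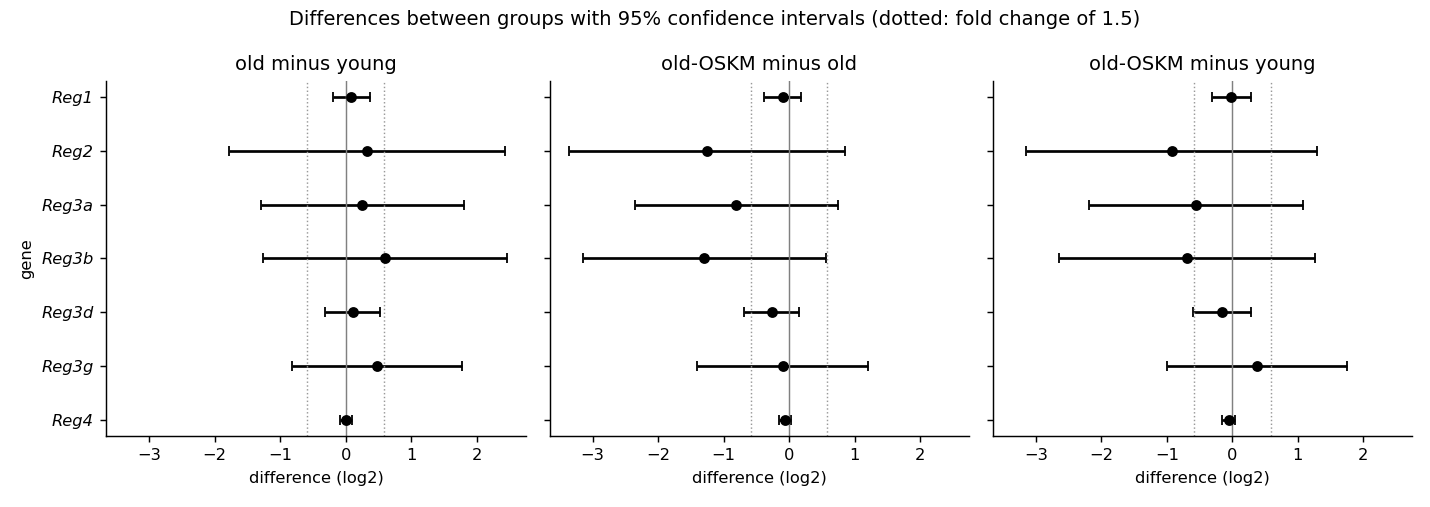
Difference of the group means for each Reg gene (log2, points) with the 95% confidence interval from limma (bars), in the 3 comparisons, with dotted lines at a fold change of 1.5. All 21 intervals include 0, and those of Reg2, Reg3a, Reg3b and Reg3g extend past the dotted lines on both sides or, for Reg3b in old-OSKM compared with old mice, on one side.

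The balance between members within a mouse was then compared, which removes only a shift that is equal for both members on the log2 scale. The shifts were not always equal. In JCX1003, Reg3b lay 3.52 and Reg3g 0.72 above the mean of JCX1000, JCX1001 and JCX1002, so a ratio can still carry the difference between high and other mice. All 15 pairs of the 6 members with a mean above 0 were tested in the 3 comparisons, 45 exact permutation tests in all, and this was chosen after the values were seen. The groups did not overlap for 2 of 15 pairs between old-OSKM and old mice and for 2 between old-OSKM and young mice. Between old and young mice this held for 0 pairs. The pairs were the same in both cases, and both hold Reg3g. How often pairs of other genes separate in this way was not counted. The ratio of Reg3b to Reg3g, one of them, had a lower mean in old-OSKM mice. It was 1.24, 0.60, 1.19 and 1.28 (log2) in the old-OSKM mice, in the order used above. In the young mice it was 2.43, 2.01, 2.25 and 1.91, and in the old mice 1.52, 1.85, 1.56, 1.99 and 4.44. The old-OSKM mice lay below all 9 others. The log2 difference was -1.19 from old mice (exact permutation p = 0.0238, adjusted 0.429 over 45 tests) and -1.07 from young mice (exact permutation p = 0.0286, adjusted 0.429). The ratio of Reg3a to Reg3g showed the same order, at -0.14, -0.27, 0.12 and 0.097 in old-OSKM mice, 0.15 to 1.53 in old mice and 0.57 to 1.25 in young mice. Its log2 difference was -0.70 from old mice (exact permutation p = 0.0397, adjusted 0.446) and -0.93 from young mice (exact permutation p = 0.0286, adjusted 0.429). None of the 45 tests passed after adjustment, so the ratios are given as values only. Without JCX1003 the difference of the ratio of Reg3b to Reg3g between old-OSKM and old mice was -0.65.

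**Figure D5:**
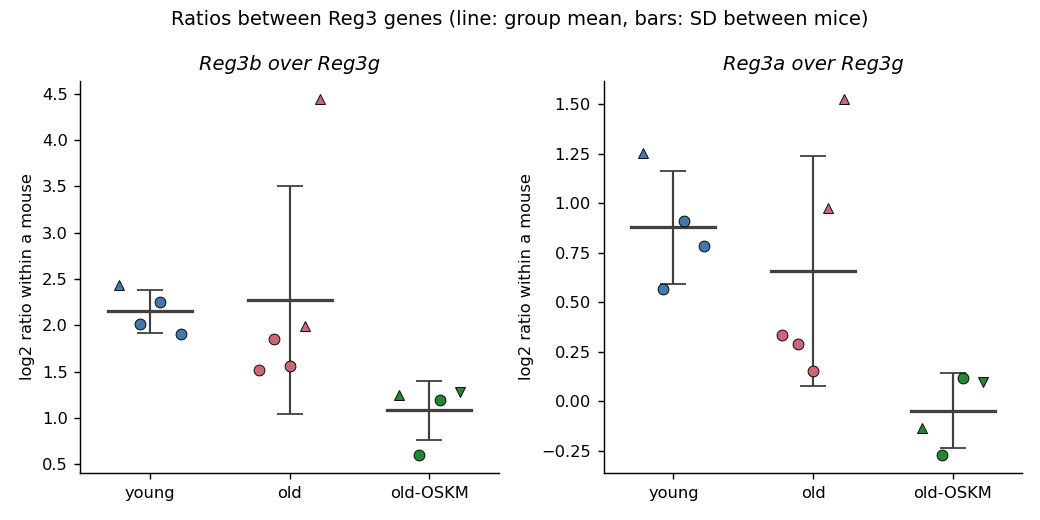
Log2 ratio of Reg3b to Reg3g (left) and of Reg3a to Reg3g (right) within each mouse, by group, one point per mouse with the group mean (line) and the SD between mice (bars), and with triangles as in the plot of the 7 genes. The 4 old-OSKM mice sit between 0.60 and 1.28 on the left and between -0.27 and 0.12 on the right, below every young and old mouse.

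The genes upstream of the Reg3 genes were examined as a list of 33 genes of the IL-22, IL-6 and STAT3 pathway, of which 19 had a mean above 0. In each of the 3 comparisons 0 of 33 were called, with median log2 differences of 0.0026 between old and young mice and 0.071 and 0.067 for old-OSKM against old and young mice. Raw p-values under 0.05 were found for 2, 3 and 1 of the 33, where 5.52%, 8.07% and 5.07% of all genes had one. The cytokine genes themselves were near the floor, with Il22 at -3.35 to -3.13 and Il6 at -3.35 to -2.14 log2 RPKM. The receptor gene Il22ra1, which encodes the IL-22 binding chain and is known from acinar cells, had the smallest p of the list. It was at 1.66, 1.56, 1.81 and 1.51 log2 RPKM in young mice, at 1.93, 2.13, 2.13, 1.96 and 2.32 in old mice, and at 1.64, 1.77, 1.73 and 1.53 in old-OSKM mice. All 5 old mice lay above all 8 others, in a gene named for its small p among 33. The share of all genes that separate in this way was not counted. The log2 difference was 0.46 (standard error 0.092, adjusted p = 0.132 from limma) between old and young and -0.43 (standard error 0.092, adjusted p = 0.547 from limma) between old-OSKM and old mice, under the fold change of the call rule and not past 0.05 after adjustment. Its order over the groups was not that of the 4 high Reg mice, since JCX1155 and JCX1025 lay at 1.66 and 1.64. Il6ra (the IL-6 receptor) had a log2 difference of -0.22 and Junb (an immediate early gene) one of 0.47 between old-OSKM and old mice, and Stat3 itself ranged from 1.66 to 2.27 log2 RPKM over all mice. Extl3, an exostosin-like glycosyltransferase gene proposed as the Reg receptor, was expressed at 3.17 to 3.36 log2 RPKM in all 13 mice and differed by 0.017 or less between group means.

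Other genes of injured pancreas and of the acute phase were not called either. Of 22 genes of acinar injury and metaplasia, 0 were called in each comparison. Their median log2 difference was -0.16 between old and young, 0.31 between old-OSKM and old and 0.16 between old-OSKM and young mice. The mean log2 RPKM of these 22 genes was 2.19, 1.79, 1.61 and 2.12 in JCX1025, JCX1027, JXC384 and JCX1011, and 1.51 to 1.73 in old mice. The 3 with the smallest p between old-OSKM and old mice were Anxa2 (0.66), Anxa5 (0.29), both annexins, and Msn (0.61), which encodes moesin, each with an adjusted p of 0.547 in limma. Nupr1, a stress-induced gene of acinar cells, was at 5.56, 6.49, 5.78 and 6.26 log2 RPKM in the high mice JCX1155, JCX1051, JCX1003 and JCX1025. The other 9 mice lay between 5.88 and 6.92, and the 2 ranges overlapped. Of 22 acute phase and antimicrobial genes, 2 had a mean above 0 and 0 were called. Saa3, an acute phase serum amyloid, differed by 1.37, Lyz2, a lysozyme of macrophages, by 1.03 and Itih4 by -0.76 in the same comparison (adjusted p = 0.547 each from limma). Beside them, macrophage genes had a median difference of 0.76 between these groups. Of 10, 7 had a raw p under 0.05 (8.07% of all genes), and C1qc was called (1.02, with 0.753% of all genes called). Their summed level was 36.8, 13.7, 15.8 and 26.2 RPKM in JCX1025, JCX1027, JXC384 and JCX1011. It was 9.21 to 16.4 RPKM in old and 11.5 to 19.6 RPKM in young mice. In the old-OSKM mice, in the same order, Lyz2 was at 3.84, 2.47, 2.40 and 3.99 log2 RPKM, and in old mice at 1.71 to 2.49. The 10 fibroblast and stellate genes had a median difference of 0.63 in this comparison, with 5 at a raw p under 0.05 and Col1a2, Thy1 and Col1a1 called. Their summed level was 45.7, 31.4, 28.8 and 77.4 RPKM in JCX1025, JCX1027, JXC384 and JCX1011, and 22.9 to 29.1 RPKM in old mice. The 10 adipocyte genes had a median difference of 1.11, with 4 at a raw p under 0.05 and Plin1 called. Their summed level was 16.0 RPKM in JCX1025 and 16.4 RPKM in JCX1011. It was 5.60 RPKM in JCX1027 and 5.50 RPKM in JXC384, within the 4.94 to 7.52 RPKM of old mice.

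The genes whose pattern over the 13 mice was most like that of each member were sought by Pearson's r as a description. The search covered the 8397 genes with a symbol and a mean above 0, the members included. The nearest genes of Reg2 were Reg3a (r = 0.95) and Reg3b (0.90), those of Reg3b were Reg3a (0.94) and Reg2, and those of Reg3a were Reg2 and Reg3b. Each of the 3 thus had the others as its nearest genes among those searched. Prkx, a protein kinase gene of the X chromosome, followed Reg2 (0.88) and Reg3a (0.90). It varied far less, between 0.31 and 0.84 log2 RPKM. Slc39a8 and Galnt7 were among the 5 nearest genes of Reg3b, and Mtif2 among those of Reg2. Reg1, Reg3d and Reg3g had no member among their 5 nearest genes, and Reg4 was not searched. For Reg1 these were Sacm1l (0.95), Plaat3, Mrpl14, Ssr4 and Gnai3. For Reg3d they were Cgref1 (0.95), Snap29, Dad1, Atg4a and Enpp1, and for Reg3g Twf1 (0.93), Copb1, G6pdx, Smu1 and Pef1. JCX1011 had the lowest value of the 13 mice for Sacm1l (1.65), Cgref1 (0.60), Twf1 (1.47) and Prkx, as it had for the Reg genes.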

How the data were processed

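Pancreas RNA of 13 mice was sequenced as described above. Per the labels and the study's methods, the authors aligned reads to mm10 with STAR 2.3.0e, estimated RPKM per isoform with Casper without reads that mapped to 5 or more locations, and summed them per Entrez gene. The deposited values are log2 RPKM after quantile normalization by the authors (sorted values of the mice differ by at most 0.0116), so a value depends on its rank, and the correction for total reads named in the methods is not in them. The methods give one read number for all libraries, and totals per mouse are not given in the sources used here.

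The values were used as deposited, with no pseudocount and no filter. All 23366 genes and 3 groups were fitted together with limma 3.58.1 (R 4.3.3), without covariates. A gene was called where its raw p was under 0.01 and it differed by more than 1.5-fold, and p-values were adjusted (Benjamini-Hochberg) over all genes. The fit was tested on simulated data. Exact permutation tests (all splits or all orders, two-sided) and figures used Python 3.11.15. Random orders (100000) stood in for correlations over 10 or more mice.

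The members and gene lists were chosen with earlier results of these data known. The text names the 7 members, the 5 nearest genes of each, and of each list the called genes and the 3 with the smallest p between old-OSKM and old mice, and not every such gene is reported here. Vil1, Il22, Il6, Stat3 and Nupr1 were added as markers or regulators. Promoters were matched by symbol to RefSeq sequences (7 of 7 matched). No protein sequences were used here. Ly6g and Trbc1 of the marker lists are not among the rows used.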

Additional observations from a re-analysis of the deposited data

Results flagged for a closer look

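In 27 sets of values (7 genes and 2 ratios in 3 groups), a mouse was looked for whose gap to its nearest neighbour took up more of the range of its group than Dixon's limit allows, and 5 were found. Chance alone gives such a gap in about 5% of sets. Among young mice, JCX1155 stood apart for Reg3a at 3.07 log2 RPKM, where the other 3 lay between 1.08 and 1.28. Among old-OSKM mice, JCX1011 stood apart for Reg3d at 4.35 log2 RPKM, where the others lay between 5.18 and 5.29. The log2 ratio of Reg3b to Reg3g stood apart at 4.44 in the old mouse JCX1003, where the other old mice lay between 1.52 and 1.99, and at 0.60 in the old-OSKM mouse JCX1027, where the others lay between 1.19 and 1.28. Reg4 stood apart at -3.14 log2 RPKM in the old mouse JCX1001, within a range of 0.040 for this group in which no expression is read.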

How the results depend on the processing

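In the main, the members stayed uncalled: 0 of 7 were called in each comparison under all alternatives, including adjusted p-values under 0.05 as the rule, an exact permutation test in place of limma, and each mouse left out in turn. Between old-OSKM and young mice the smallest exact p is 0.0286, above the 0.01 of the call rule, so this alternative is void there. Of 522 differences of members under an alternative, 485 kept their direction and 37 did not, and the smallest raw p was 0.0506. Part of the 485 could not change direction, because some alternatives leave the difference of means as it is. These include the exact permutation test, other variance settings of limma, the filter on the mean and the leave-out of a mouse outside the groups compared. The count is therefore no measure of how stable the directions are. The leave-out of JCX1158, JCX1025 and JCX1011 together, the 9-mouse correlations and all ratios were added after the data were seen.

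With sample identifiers 609 to 621 only, the log2 difference between old and young mice turned to -0.78 for Reg2, -0.54 for Reg3a, -0.57 for Reg3b, -0.074 for Reg3g and -0.026 for Reg4, that of Reg3g between old-OSKM and young mice to -0.084, and that of the ratio of Reg3b to Reg3g between old and young mice to -0.49. Without the 3 mice whose marker lists stand apart, it turned to -0.086 (Reg2) and -0.0053 (Reg4) between old and young, to 0.0013 (Reg1), 0.11 (Reg3g) and 0.012 (Reg4) between old-OSKM and old, and to 0.057 (Reg1), 0.078 (Reg3d) and 0.0065 (Reg4) between old-OSKM and young mice. Reg4 turned to -0.011 when scaled to the acinar secretory genes and to -0.0073 with the run of identifiers as a covariate (old and young), and Reg3g to 0.032 with a pseudocount of 1 (old-OSKM and old).

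With each mouse left out in turn, the differences between old and young mice ran from -0.14 to 0.90 (Reg2), -0.051 to 0.72 (Reg3a), -0.031 to 1.03 (Reg3b) and -0.0094 to 0.013 (Reg4), and those of the ratio of Reg3b to Reg3g from -0.42 to 0.31. Between old-OSKM and old mice they ran from -0.19 to 0.057 (Reg1) and -0.61 to 0.55 (Reg3g), and between old-OSKM and young mice from -0.10 to 0.14 (Reg1), -1.03 to 0.057 (Reg3a), -0.25 to 0.064 (Reg3d) and -0.13 to 1.03 (Reg3g). The cause was not tested.

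The count of all genes called (207, 176 and 146 in the 3 comparisons) was 116, 77 and 76 with a pseudocount of 0.1, 16, 2 and 8 with one of 1, 44, 35 and 19 among genes with a mean above 0, and 19, 1 and 10 with adjusted p-values as the rule. Without the 3 mice it was 340 between old and young and 115 between old-OSKM and old mice. With each mouse left out it ran from 94 (without JCX1025) to 338 (without JCX1027, and 284 without JXC384) between old-OSKM and old and from 121 to 253 (without JCX1027) between old-OSKM and young mice. By Pearson's r (and Spearman's rho), correlations passed in 14 (11) of 21 pairs over all mice, in 8 (1) without the 2 farthest mice, in 8 (6) without JCX1011 and in 0 (0) over the 9 mice without the 2 farthest, where that of Reg2 and Reg3b was -0.25. Of the 15 pairs without Reg4, a setting added later, 14 (11) passed over all mice.

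The groups of 4 and 5 mice, the lack of read totals per mouse and the rank-bound values limit what can be seen. No paired analysis was possible because the labels give no replicate numbers.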

Other observations

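The other genes whose spread within groups was as large as that of Reg3g or larger were listed after their values were seen. Of the 12 genes with the largest SD among those with a mean above 0, 4 were Reg genes. The others were Alb (albumin, 1.79), which was at 5.36 log2 RPKM in JCX1158 and at 1.24 or below in all other mice, the circadian clock genes Arntl (1.47) and Dbp (1.45), Ppy (pancreatic polypeptide, 1.14), Jchain (immunoglobulin joining chain, 1.12), Rpl26 (1.04), Trim50 (1.04) and Lars2 (1.02).

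Arntl, the gene of the clock activator BMAL1, was at -0.84 in JCX1163, -1.99 in JCX1164 and -2.72 in JCX1011, and between 0.98 and 1.74 log2 RPKM in the other 10 mice. Dbp, an output gene of the clock with the opposite phase, was at 2.47, 2.91 and 3.83 in the same 3 mice and at 0.80 or below in the others. The 4 mice with high Reg2, Reg3a, Reg3b and Reg3g all belonged to the 10 with high Arntl. Since those 10 are most of the mice, this overlap says little. JCX1011, the lowest for every Reg gene, had the lowest Arntl and the highest Dbp. JCX1163 and JCX1164 had unremarkable Reg2 levels (5.54 and 5.67). The hour of collection is not given in the labels, and its relation to the Reg genes was not tested.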
